A study of Homo sapiens with 4 samples.

Results

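Voltage-gated potassium, sodium and calcium channels and their relatives were examined in BE(2)C cells, a human neuroblastoma line with amplified MYCN, with and without knockdown of MYCN. The genes were chosen by symbol alone: the KCN genes with a family letter and a number, the SCN alpha and beta subunit genes, and the CACN alpha1, alpha2delta, beta and gamma subunit genes. This rule gave 135 of the 26364 genes listed in each sample. The measurement is RNA-seq in 4 samples, 2 of control cells (Ctrl) and 2 of MYCN knockdown cells (MYCN KD). Ctrl cells received a non-targeting siRNA and MYCN KD cells an siRNA against MYCN, both with a cationic lipid reagent, and RNA was taken the next day. The sample labels give 80 nM of siRNA, and the study's methods a lower final concentration. All 4 samples come from this 1 cell line and nothing in the labels ties them to separate cultures, so that p-values measure the spread between these samples, which may be technical.

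These channels set the electrical behaviour of a cell. Potassium channels let potassium leave and hold or restore the resting potential, sodium channels carry the rising phase of the action potential, and voltage-gated calcium channels couple depolarization to calcium entry and to the release of transmitter. Each channel has a pore-forming subunit, and auxiliary subunits set its gating and its number at the surface. Neuroblastoma arises from the sympathoadrenal lineage, whose mature cells, sympathetic neurons and chromaffin cells, are electrically excitable.

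Values are RPKM (reads per kilobase of gene and per unit of sequencing depth), which the authors calculated after removing unwanted variation. The test was limma on log2(RPKM + 1), applied where the mean RPKM reached 1. This scale understates the change of weakly expressed genes. The mean was taken over all 4 samples, so a gene could reach 1 through a single group. Among the channel genes KCND1 and KCNF1 did so through MYCN KD, and KCNG1 and KCNJ14 through Ctrl. That these genes were tested thus depended on the group in which they were high. P-values were adjusted after Benjamini and Hochberg over all 11411 genes tested. The threshold was an adjusted p of 0.05. MYCN had 1068 and 1073 RPKM in the Ctrl samples and 720.2 and 718.0 RPKM in the MYCN KD samples, with a log2 fold change of -0.57 (limma adjusted p = 0.00361). The totals behind the values lay from 29055819 to 34142988 reads, as recovered from the RPKM steps. The deviations of the replicates from their group means were nearly mirror images in Ctrl and MYCN KD (correlation -0.9845 over 11411 genes), so the 4 samples were not independent after the authors' processing, and p-values, which take them as independent, may be too small. Of 8 adrenergic marker genes all 8 passed the expression filter, and their summed RPKM was 1251 to 1353 in Ctrl and 1988 to 2163 in MYCN KD. The summed RPKM of 6 mesenchymal or stromal markers was 23.0 to 25.1 in Ctrl and 28.5 to 31.1 in MYCN KD, that of 4 Schwann or glial markers 5.65 to 6.11 and 9.94 to 10.7, that of 4 leukocyte markers 3.50 to 4.30 and 9.43 to 11.5, and that of 3 endothelial markers 0.286 to 0.367 and 0.504 to 0.638. The leukocyte sum was nearly all CD68, a lysosomal protein, while the defining leukocyte gene PTPRC had at most 1 read in a sample. The part of these marker differences in the results was not tested. In bulk RNA, fewer cells of a type and less RNA per cell cannot be told apart.

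A few channel genes carried most of the summed RPKM. Of the 135 genes, 22 were listed at 0 in all samples, where a count of 0 allows up to 3 reads in each library, 62 had a mean RPKM above 0 but under 0.2, 16 lay from 0.2 to 1, and 35 reached 1 and were tested. The 22 at 0 were KCNA1, KCNA4, KCNA10, KCNB2, KCNC2 and KCND2 among the voltage-gated potassium channels, KCNJ1, KCNJ5, KCNJ9, KCNJ15, KCNJ16 and KCNJ18 among the inward rectifiers, KCNK16 and KCNK18, the auxiliary KCNE3, KCNIP1, KCNIP3 and KCNMB1, the sodium channels SCN10A and SCN11A of sensory neurons, and CACNG3 and CACNG6. Only 7 of the 135 had a mean RPKM of 20 or more. On this scale, which is per gene length, the order from the top was KCNH2, KCNK3, KCNJ8, KCNT1, CACNG4, SCN3B and CACNA2D2. The means of KCNH2 (130.5 RPKM) and KCNK3 (120.4 RPKM) were close, as KCNH2 lay above KCNK3 in Ctrl and below it in MYCN KD.

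**Figure D1:**
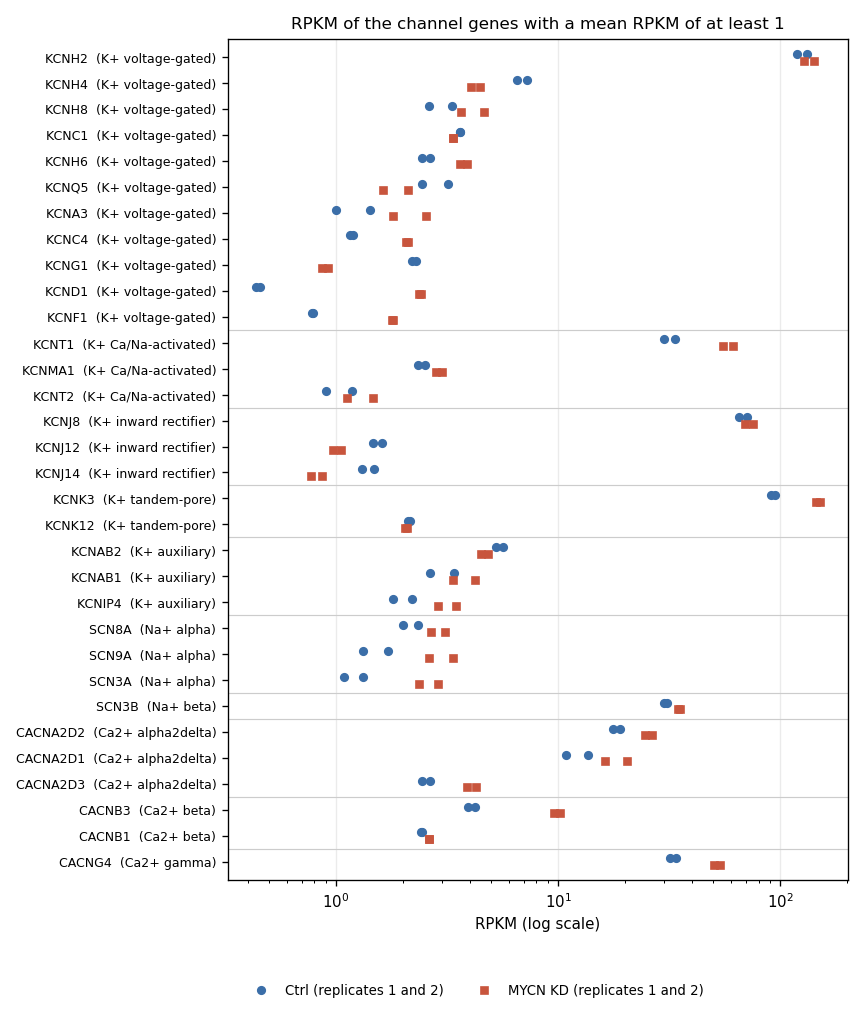
RPKM on a log scale for 32 channel genes whose mean reached 1, ordered by role, with each point 1 sample (circles Ctrl, squares MYCN KD). KCND1, KCNT1, KCNK3, CACNB3 and CACNG4 stand to the right in MYCN KD, KCNG1 and KCNH4 stand to the left, and KCNH2 and KCNJ8 overlap.

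After MYCN knockdown 14 of the 35 tested channel genes rose and 5 fell, and 16 did not pass the threshold. By log2 fold change on log2(RPKM + 1), the rises were led by KCND1, CACNB3, KCNT1, SCN3A and KCNK3, and the falls by KCNG1 and KCNH4. By the ratio of means the order differed below KCND1, CACNB3 and KCNG1. KCNF1 (2.29) and SCN9A (1.975) then stood above KCNT1 (1.84), and KCNC4 (1.77) above KCNK3 (1.59). Among the falls, KCNJ14 (0.5845) then lay below KCNH4 (0.619). Among all genes tested, 25.3% were called higher and 22.8% lower, against 40.0% and 14.3% of the tested channel genes. The median log2 fold change was 0.30 over the channel genes and 0.03 over all genes tested. With each sample scaled to the same total RPKM, 15 channel genes were higher and 5 lower, beside 28.7% and 18.6% of all genes, and with quantile normalization 15 and 6, beside 25.4% and 26.2%. These shares and medians are descriptions, and whether the channel genes differ from other genes was not tested. Both MYCN KD values lay above both Ctrl values in 21 of the 35 and below them in 9, where 40.4% and 35.8% of all tested genes did so. The groups overlapped in 5 genes. With 2 samples against 2, an exact permutation test of a single gene cannot go below p = 0.3333 (two-sided), so the calls rest on the variance that limma shares across genes.

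**Figure D2:**
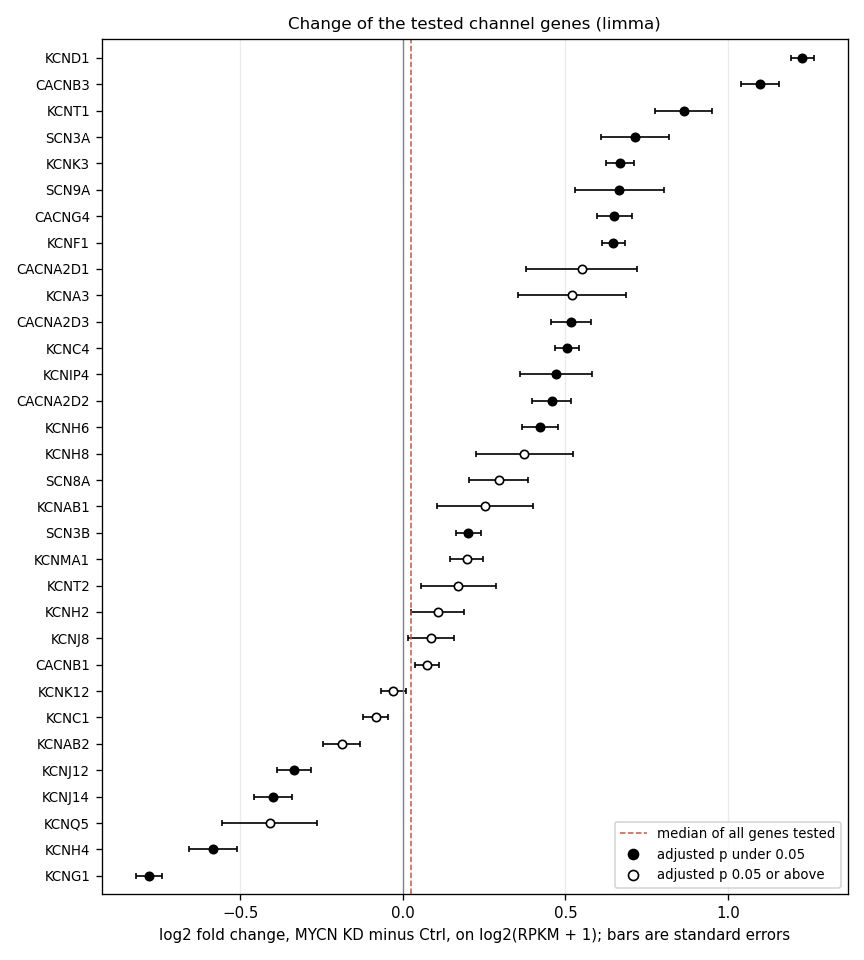
Log2 fold change (MYCN KD minus Ctrl, on log2(RPKM + 1)) of 32 tested channel genes with standard errors, filled where the adjusted p from limma was under 0.05. The 14 filled points on the right run from SCN3B (0.20) to KCND1 (1.23), and the 4 on the left from KCNJ12 (-0.34) to KCNG1 (-0.78).

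Promoter sequence was available for 97 of the 135 genes in the RefSeq promoter table (GRCh38.p14, 300 bases around each start). MYC proteins with their partner MAX bind the E-box CACGTG, which reads the same on both strands. It was present in the promoters of 3 of 26 tested channel genes with a sequence, KCNH4, KCNAB1 and KCNAB2, and in 13.2% of all tested genes with one. None of the 11 sequenced promoters of the channel genes that rose held it (0 of 11). The GC box GGGCGG, searched on both strands, was in 22 of the 26 (84.6%) and in 78.3% of all tested genes with a sequence. A match of letters is no binding site, and binding was not analysed here. The 120 bases before the start are printed below for the 2 genes with an E-box that passed a test, KCNH4 (lower) and CACNA1B (higher in a fit that took in genes down to a mean RPKM of 0.2), and for KCND1 and CACNB3, the largest rises. Capitals mark the E-box and the GC box, each line reads toward the start of the gene, and CACNB3 has 3 starts in the table, of which the first is shown.
KCNH4 (chr17:42181143-42181262, minus strand): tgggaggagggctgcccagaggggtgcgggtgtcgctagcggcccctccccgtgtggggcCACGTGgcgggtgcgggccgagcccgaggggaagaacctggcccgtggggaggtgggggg
CACNA1B (chr9:137877662-137877781, plus strand): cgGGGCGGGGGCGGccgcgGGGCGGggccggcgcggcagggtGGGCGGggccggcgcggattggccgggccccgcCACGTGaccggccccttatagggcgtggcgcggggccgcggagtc
KCND1 (chrX:48971845-48971964, minus strand): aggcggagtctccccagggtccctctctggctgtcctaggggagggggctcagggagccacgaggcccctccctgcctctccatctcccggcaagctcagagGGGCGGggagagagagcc
CACNB3 (chr12:48814360-48814479, plus strand): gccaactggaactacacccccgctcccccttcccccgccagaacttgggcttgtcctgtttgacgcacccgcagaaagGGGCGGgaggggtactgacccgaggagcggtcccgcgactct
The E-box of KCNH4 begins 60 bases before the start and that of CACNA1B 45 bases before it, and the genes moved in opposite directions. GC content of these stretches was 77.5% for KCNH4, 86.7% for CACNA1B, 70.8% for KCND1 and 66.7% for CACNB3, against a median of 60% over all 35116 promoters in the table. That median takes in genes not tested here, and none was computed for tested genes alone. The GC box was in 48.3% of all genes with a promoter, beside 78.3% of those tested.

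Among the voltage-gated potassium channel alpha subunits, 40 genes in all with 6 listed at 0, 14 were tested, of which 4 rose, 3 fell and 7 did not pass. KCND1, which encodes a pore subunit of the A-type current that inactivates quickly (Kv4.1), had the largest rise of all tested channel genes. It had 0.453 and 0.437 RPKM in the Ctrl samples and 2.36 and 2.41 RPKM in the MYCN KD samples. Both MYCN KD values were far above both Ctrl values, and the mean was 5.36 times that of Ctrl. The log2 fold change was 1.23 (standard error 0.036, limma adjusted p = 0.00359). KCND1 lies on chromosome X of GRCh37 from 48818639 to 48828251 on the minus strand, and the stretch before its start printed above holds 1 GC box and no E-box. Its level is still low: these values stand for 73 and 66 reads in Ctrl and 324 and 352 in MYCN KD. KCND3, another gene of the same family, had at most 8 reads in a sample, and KCND2 was listed at 0.

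KCNF1 encodes an electrically silent subunit that forms no channel alone and modifies other Kv channels. It had 0.781 and 0.792 RPKM in Ctrl cells and 1.80 and 1.79 RPKM in MYCN KD cells, 2.29 times as much (log2 fold change 0.65, limma adjusted p = 0.00373). KCNG1, another silent subunit, went the other way from KCNF1 and was the largest fall, on the log2 scale, among the 35 tested channel genes. Its Ctrl samples had 2.30 and 2.21 RPKM and its MYCN KD samples 0.868 and 0.917 RPKM, and its mean in MYCN KD was 0.396 of that in Ctrl (log2 fold change -0.78, standard error 0.040, limma adjusted p = 0.00365). KCNG1 lies on chromosome 20 from 49620193 to 49639644, and its exons overlap those of a noncoding gene on the opposite strand. No source used here says whether counting used strand, so reads of such pairs cannot be told apart.

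The ether-a-go-go related genes, whose channels shape the resting potential and repolarization, did not move together. KCNH2, which encodes hERG and is expressed in many tumours, was the most abundant channel gene of Ctrl, with 131.9 and 119.5 RPKM there and 128.9 and 141.9 RPKM in MYCN KD. Its groups overlapped, and its log2 fold change of 0.11 did not pass the threshold (limma adjusted p = 0.335). KCNH6, its close relative, had 2.64 and 2.45 RPKM in the Ctrl samples against 3.62 and 3.89 RPKM after MYCN knockdown and rose (log2 fold change 0.42, limma adjusted p = 0.0124). KCNH4 had 7.23 and 6.57 RPKM in Ctrl cells and 4.07 and 4.47 RPKM in MYCN KD cells, and fell to 0.619 of the Ctrl mean (log2 fold change -0.58, standard error 0.073, limma adjusted p = 0.0110).

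Of the KCNQ genes, which encode the subunits of the M-current that limits repetitive firing, KCNQ5 had 2.45 and 3.20 RPKM in the Ctrl samples against 2.12 and 1.64 RPKM after MYCN knockdown, a log2 fold change of -0.41 that did not pass (limma adjusted p = 0.0948). KCNQ3 had 1 read in 1 Ctrl sample and none in the others. KCNA3, a Kv1 channel known from lymphocytes and neurons, had 1.003 and 1.42 RPKM in the Ctrl samples and 2.54 and 1.81 RPKM after knockdown. Its groups did not overlap, but its log2 fold change of 0.52 did not pass (limma adjusted p = 0.0766). Of the Kv3 channels, which serve fast firing, KCNC4 rose from 1.19 and 1.16 RPKM to 2.06 and 2.12 RPKM (log2 fold change 0.50, limma adjusted p = 0.00502). KCNC1 (log2 fold change -0.08, adjusted p = 0.151) and the ether-a-go-go relative KCNH8 (0.37, adjusted p = 0.119) did not pass.

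The potassium channels opened by calcium or sodium were led by KCNT1, a channel opened by internal sodium. KCNT1 had 33.5 and 30.0 RPKM in Ctrl cells and 55.5 and 61.7 RPKM in MYCN KD cells. The MYCN KD mean was 1.84 times that of Ctrl, well above the spread of either group (log2 fold change 0.86, standard error 0.087, limma adjusted p = 0.00765). KCNT1 lies on chromosome 9 from 138594031 to 138687354. KCNMA1, the large-conductance calcium-activated channel, had Ctrl values of 2.35 and 2.51 RPKM and MYCN KD values of 3.02 and 2.83 RPKM. Its groups did not overlap, but its log2 fold change of 0.20 did not pass (limma adjusted p = 0.0509). KCNT2, the relative of KCNT1, had 0.899 and 1.18 RPKM in Ctrl cells and 1.46 and 1.13 RPKM in MYCN KD cells, with overlapping groups (limma adjusted p = 0.290). The small-conductance channels KCNN2 and KCNN3 were under the filter, with at most 3 and 77 reads in a sample.

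The tandem-pore-domain channels carry the background potassium current that holds the resting potential. KCNK3, an acid-sensitive channel of this kind (TASK-1), had 94.6 and 90.9 RPKM in the Ctrl samples against 145.1 and 150.8 RPKM after MYCN knockdown. Both MYCN KD values exceeded both Ctrl values, and the mean was 1.59 times as high (log2 fold change 0.67, standard error 0.042, limma adjusted p = 0.00424). In MYCN KD the level of KCNK3 lay above that of KCNH2, whereas in Ctrl it lay below it. KCNK3 lies on chromosome 2 from 26915590 to 26956288. KCNK12, the other tested gene of the group, stayed at 2.05 to 2.16 RPKM in all samples (log2 fold change -0.03, limma adjusted p = 0.558). Its groups did not overlap even so, with a difference that small.

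The inward rectifiers hold the potential near rest, and none of the 3 tested rose. KCNJ8, which forms the pore of an ATP-sensitive channel, was the most abundant, with 65.4 and 71.2 RPKM in Ctrl cells and 75.5 and 69.5 RPKM in MYCN KD cells. Its groups overlapped (log2 fold change 0.09, limma adjusted p = 0.377). KCNJ14 had Ctrl values of 1.48 and 1.32 RPKM and MYCN KD values of 0.773 and 0.862 RPKM (log2 fold change -0.40, limma adjusted p = 0.0141). Its exons overlap those of GRWD1 on the same strand, and GRWD1 had 63.5 and 58.0 RPKM in the Ctrl samples against 38.4 and 41.9 RPKM after MYCN knockdown, so that the fall of KCNJ14 cannot be told apart from that of its far more abundant neighbour. KCNJ12 had 1.61 and 1.47 RPKM in Ctrl cells and 0.967 and 1.06 RPKM in MYCN KD cells (log2 fold change -0.34, limma adjusted p = 0.0162). Its near-identical copy KCNJ18 was listed at 0, so the split of reads between the copies is uncertain. The KCNJ12 call was lost without Ctrl replicate 1 or without MYCN KD replicate 1, where the highest adjusted p was 0.0521. The G protein-activated channel gene KCNJ3 had 5 or 6 reads in each sample.

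Of the potassium channel auxiliary subunits, 3 of 16 were tested and 1 rose. KCNIP4, a calcium-binding partner of the Kv4 channels to which KCND1 belongs, had Ctrl values of 1.81 and 2.20 RPKM and MYCN KD values of 3.47 and 2.88 RPKM (log2 fold change 0.47, limma adjusted p = 0.0398). It did not pass when genes of every level were tested (adjusted p = 0.0663). KCNIP4 overlaps exons of PACRGL on the opposite strand. The beta subunits of the Kv1 channels did not pass. KCNAB2 had 5.64 and 5.26 RPKM in the Ctrl samples against 4.501 and 4.82 RPKM after MYCN knockdown (limma adjusted p = 0.0713). KCNAB1 had 2.66 and 3.40 RPKM in Ctrl cells and 4.25 and 3.36 RPKM in MYCN KD cells, with overlapping groups (limma adjusted p = 0.236).

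Of the sodium channel alpha subunits, 10 genes with 2 listed at 0, 3 were tested and 2 rose. SCN3A, which encodes the channel of embryonic neurons (Nav1.3), had Ctrl values of 1.09 and 1.33 RPKM and MYCN KD values of 2.88 and 2.37 RPKM, 2.17 times the Ctrl mean (log2 fold change 0.71, standard error 0.10, limma adjusted p = 0.0147). SCN9A, the channel of sympathetic and pain-sensing neurons (Nav1.7), had 1.33 and 1.72 RPKM in the Ctrl samples against 3.38 and 2.63 RPKM after MYCN knockdown (log2 fold change 0.67, standard error 0.14, limma adjusted p = 0.0300). The call of SCN9A was lost when genes of every level were tested (adjusted p = 0.0511). SCN8A, the main channel of the mature axon initial segment, had 2.01 and 2.35 RPKM in Ctrl cells and 3.12 and 2.69 RPKM in MYCN KD cells. The groups of SCN8A did not overlap, but its log2 fold change of 0.30 did not pass (limma adjusted p = 0.0709).

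Summed over the 10 alpha subunit genes, the RPKM was 5.73 and 6.72 in Ctrl cells and 11.4 and 9.65 after knockdown, 1.69 times as much. SCN3A, SCN2A, SCN1A, SCN9A and SCN7A form a cluster on chromosome 2, from 165944036 at the near end of SCN3A to 167467992 at the far end of SCN7A. Within this cluster SCN1A had 7 and 5 reads in Ctrl and 3 and 4 in MYCN KD, and SCN7A at most 1 read in a sample, so only SCN3A, SCN2A and SCN9A had measurable levels. The loci of SCN3A and SCN2A overlap at their ends on opposite strands, and exons of SCN9A overlap the noncoding gene SCN1A-AS1. The beta subunit SCN3B, which modifies gating and anchors the channel, was far more abundant than any alpha subunit gene, with Ctrl values of 30.8 and 29.9 RPKM and MYCN KD values of 34.6 and 35.6 RPKM. Its rise was small (log2 fold change 0.20, limma adjusted p = 0.0269), and the call was lost with any 1 of the 4 samples left out (adjusted p from 0.143 to 0.270).

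The calcium channel genes showed much RNA for auxiliary subunits and little for the pores. None of the 10 alpha1 genes, which encode the pores, reached a mean RPKM of 1, and their summed RPKM was 0.768 and 0.698 in Ctrl cells and 1.37 and 1.43 after knockdown. By contrast the summed RPKM of the 4 alpha2delta genes, whose products carry channels to the surface, was 32.3 and 34.1 in Ctrl cells and 49.5 and 46.7 after knockdown. CACNA2D2 had 19.0 and 17.8 RPKM in the Ctrl samples against 24.8 and 26.5 RPKM after MYCN knockdown (log2 fold change 0.46, limma adjusted p = 0.0118). Its exons overlap those of a protein-coding gene and of a noncoding gene on the opposite strand. CACNA2D3 had 2.45 and 2.66 RPKM in Ctrl cells and 4.26 and 3.91 RPKM in MYCN KD cells (log2 fold change 0.52, limma adjusted p = 0.0103). CACNA2D1 had Ctrl values of 10.8 and 13.7 RPKM and MYCN KD values of 20.5 and 16.3 RPKM, and its wider spread left its log2 fold change of 0.55 short of the threshold (limma adjusted p = 0.0719).

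CACNB3, a beta subunit that promotes surface expression of neuronal calcium channels, had the second rise of the tested channel genes after KCND1. Its Ctrl samples had 4.21 and 3.93 RPKM and its MYCN KD samples 9.55 and 10.2 RPKM, 2.42 times the Ctrl mean (log2 fold change 1.10, standard error 0.058, limma adjusted p = 0.00365). CACNB3 lies on chromosome 12 from 49207577 to 49222724 on the plus strand. CACNB1, the beta subunit first known from skeletal muscle, had 2.45 and 2.43 RPKM in the Ctrl samples against 2.61 and 2.63 RPKM after MYCN knockdown (limma adjusted p = 0.179), a difference that turned to -0.02 on the log2 scale with quantile normalization. CACNG4, which encodes a gamma subunit that also serves as an auxiliary protein of AMPA-type glutamate receptors, had 33.8 and 31.9 RPKM in Ctrl cells and 50.6 and 53.6 RPKM in MYCN KD cells (log2 fold change 0.65, standard error 0.054, limma adjusted p = 0.00587). It lies on chromosome 17 from 64960823 to 65029514, between CACNG5 and CACNG1.

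Below the filter, the 16 channel genes with a mean RPKM from 0.2 to 1 were tested in a fit of the 13918 genes whose mean RPKM reached 0.2. In that fit 24.7% of all genes were called higher and 19.8% lower. Of the 13918 genes behind these shares, 11411 had a mean RPKM of at least 1. No share was computed for genes from 0.2 to 1 alone. Of the 16 channel genes, 8 were higher and 2 lower. Several of the 10 were named after their values were seen, and with few reads, counting error matters. The counting interval of the ratio of reads (exact binomial, 95%, counting error only) lay away from 1 for 9 of the 10. The fit had picked these 10 from the same values, so the intervals give the counting error and no further support. The share among all genes called at this level was not computed. CACNA1B, the pore of the N-type channel that triggers transmitter release in sympathetic neurons, was the most abundant alpha1 gene. It had Ctrl values of 0.377 and 0.364 RPKM and MYCN KD values of 0.819 and 0.845 RPKM, from 126 and 114 reads and from 233 and 256 reads (read ratio 2.25, interval 1.92 to 2.63, limma adjusted p = 0.00574). CACNA1F, the L-type pore of the retina, had 0.177 and 0.184 RPKM in the Ctrl samples against 0.361 and 0.349 RPKM after MYCN knockdown (read ratio 1.96, interval 1.46 to 2.65). Both Ctrl values of CACNA1F lay under 0.2, so it reached the filter only through MYCN KD.

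The L-type, P/Q-type, R-type and T-type pore genes CACNA1C, CACNA1D, CACNA1A, CACNA1E, CACNA1G and CACNA1H had from 0 to 33 reads in a sample, and no difference was detectable in any of them at this depth. SCN2A had 0.357 and 0.442 RPKM in Ctrl cells and 0.771 and 0.626 RPKM in MYCN KD cells (read ratio 1.75, interval 1.49 to 2.06, limma adjusted p = 0.0413).

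KCNG4, a silent subunit of the same family as KCNG1, had 0.212 and 0.238 RPKM in the Ctrl samples against 0.785 and 0.702 RPKM after MYCN knockdown, and so moved opposite to KCNG1 (read ratio 3.31, interval 2.31 to 4.83). CACNG5, the neighbour of CACNG4, had 20 and 18 reads in Ctrl and 27 and 30 in MYCN KD (read ratio 1.65, interval 1.08 to 2.56). KCNMB3, whose exons overlap those of PIK3CA on the opposite strand, was also higher, and KCNE2 had 16 and 14 reads in Ctrl and 19 and 22 in MYCN KD, with an interval of 0.918 to 2.50 that holds 1. The genes called lower were KCNAB3, from 1.22 and 1.60 RPKM to 0.630 and 0.486 RPKM (read ratio 0.396, interval 0.304 to 0.512), and KCNK7, from 1.18 and 1.14 RPKM to 0.462 and 0.496 RPKM (read ratio 0.413, interval 0.212 to 0.765). Exons of KCNAB3 overlap those of a protein-coding gene on the same strand, so reads of the pair cannot be told apart. The 6 that did not pass were KCNG3, KCNH3, KCNIP2, KCNJ11, KCNK15 and KCNN1.

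**Figure D3:**
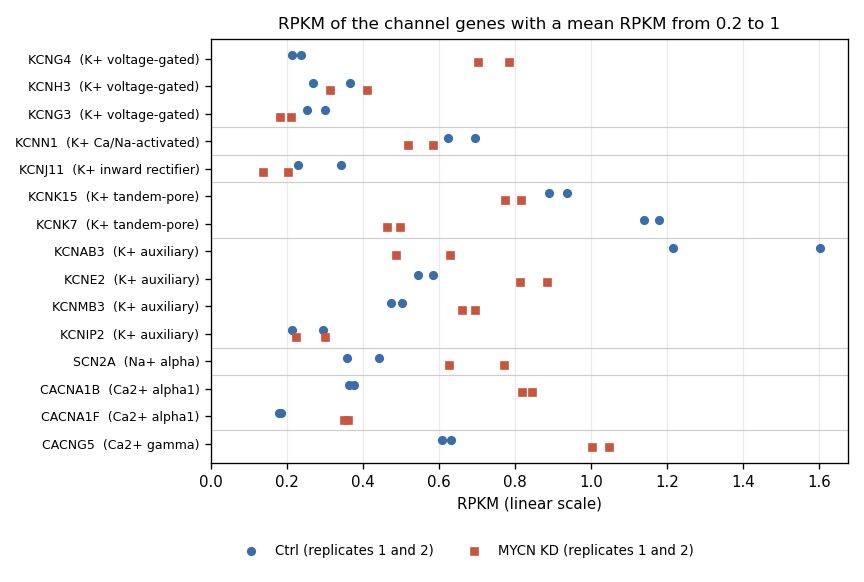
RPKM on a linear scale for 15 channel genes with a mean RPKM from 0.2 to 1, with each point 1 sample (circles Ctrl, squares MYCN KD). KCNG4, CACNA1B, CACNA1F and SCN2A stand to the right in MYCN KD, and KCNAB3 and KCNK7 to the left.

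Partners and relatives of the channels were read from a list of 57 genes that the symbol rule does not take, of which 38 were tested. Of these, 17 rose (44.7%) and 8 fell (21.1%), beside 25.3% and 22.8% of all genes tested. Their median log2 fold change was 0.21, beside 0.03 over all genes. Among the HCN genes, whose channels carry the pacemaker current, HCN2 had 8.39 and 6.78 RPKM in Ctrl cells and 16.2 and 19.95 RPKM in MYCN KD cells (log2 fold change 1.15, limma adjusted p = 0.0121). HCN3 rose from 2.94 and 2.74 RPKM to 5.30 and 5.66 RPKM (log2 fold change 0.75, limma adjusted p = 0.00504). RIMBP2, which tethers calcium channels at release sites, rose from 11.6 and 11.3 RPKM to 21.4 and 21.9 RPKM (log2 fold change 0.86, limma adjusted p = 0.00359).

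The FAM155 proteins are partners of the NALCN sodium leak channel, and their genes moved in opposite directions. FAM155A had Ctrl values of 10.96 and 12.2 RPKM and MYCN KD values of 21.0 and 18.8 RPKM (log2 fold change 0.73, limma adjusted p = 0.00994). FAM155B had 9.71 and 8.01 RPKM in the Ctrl samples against 3.37 and 4.09 RPKM after MYCN knockdown (log2 fold change -1.06, limma adjusted p = 0.0108). NALCN itself was listed at 0 in all 4 samples. The other falls named were TPCN1, a channel of endosomes and lysosomes (log2 fold change -0.67), FGF13, a protein that binds sodium channels inside the cell (-0.62), and AMIGO1, an auxiliary protein of Kv channels (-0.55), with limma adjusted p from 0.00422 to 0.00626. REST, the repressor that silences sodium channel and other neuronal genes outside neurons, had 10 and 14 reads in Ctrl and 31 and 21 in MYCN KD, from 0.0393 to 0.143 RPKM.

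**Figure D4:**
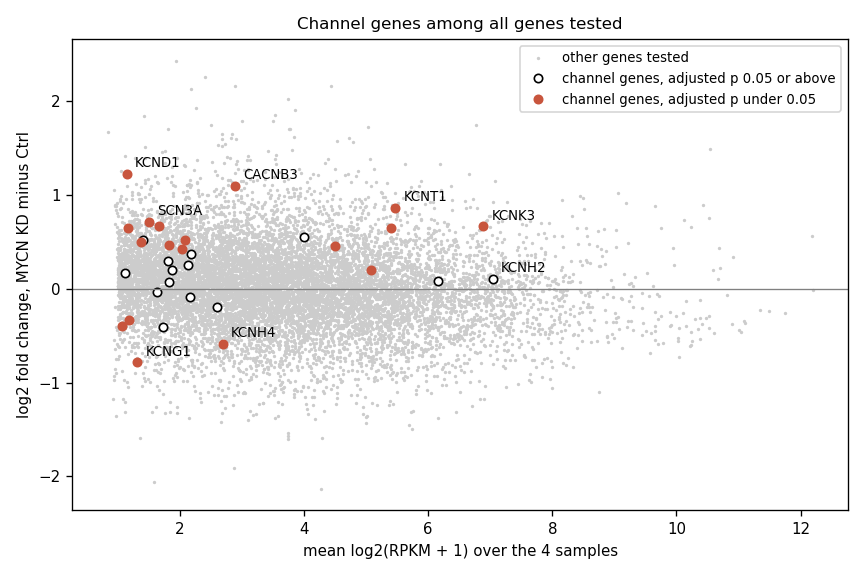
Log2 fold change (MYCN KD minus Ctrl) against mean log2(RPKM + 1) for all 11411 genes tested (grey) and 32 of the tested channel genes (circles, filled where the adjusted p from limma was under 0.05). The channel genes lie within the cloud of all genes, and at the higher levels KCNT1 and KCNK3 lie above 0 and KCNH2 close to it.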

How the data were processed

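RNA-seq of 2 Ctrl and 2 MYCN KD samples of BE(2)C cells was analysed, with groups from the sample titles. Per the labels, the reads were aligned with HISAT2 2.1.0 against hg19. The authors counted reads on RefSeq genes with featureCounts, used DESeq2 and removed unwanted variation with RUVSeq. They deposited RPKM values computed from the normalized counts, 1 file per sample. Which RUVSeq method was used, and with how many factors, is not given in the sources used here. Since that step adjusts the samples, replicate spread may be smaller than in the raw counts.

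The 11411 genes whose mean RPKM reached 1 were fitted on log2(RPKM + 1) by limma (version 3.58.1, R 4.3.3) with lmFit and eBayes, using a trend and no block, and p-values were adjusted after Benjamini and Hochberg. Each standard error comes from n = 2 per group and from the residual variance, which eBayes draws toward a trend over all genes tested. Reads were recovered from the RPKM steps: small RNA genes of known length gave each total (from 94.81% to 96.39% of those above 0 agreed on it), and the smallest gene length at which all 4 samples gave whole reads was then taken (100% of 19908 genes above 0). Such reads are the smallest that the values allow and come after the authors' adjustment. Intervals and floors cover counting error only. The scripts were tested on simulated data.

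The channel genes and lists were chosen with earlier results of these data known. Named were the channel genes past the threshold, the 2 most abundant of each role, a list of 29 genes known from neurons or neuroblastoma, 4 partner genes at each end of those past the threshold, REST and MYCN. A few genes are counted but not reported by name here or drawn. Others were named after their values were seen. Gene positions came from GENCODE release 44 on GRCh37, the build of hg19, and promoters from RefSeq (GRCh38.p14). Alternatives were another pseudocount, other filters, scalings and fits, a replicate block, each sample left out and, added after seeing the data, a crossed block and limma voom on recovered reads. Python 3.11.15, numpy 2.4.6, pandas 2.3.3 and matplotlib 3.10.9 were used.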

Additional observations from a re-analysis of the deposited data

How the results depend on the processing

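Of 14 channel genes that rose, 11 passed in each of the alternatives that tested them, the crossed block aside, and of 5 that fell, 3 did. Of the 35 tested, 32 kept their direction. KCNK12 turned to 0.012 with the same total RPKM and CACNB1 to -0.021 with quantile normalization. Neither passed the threshold. KCNMA1, which fell just short of it above, passed with eBayes without a trend and with voom, so its call depends on the setting. Channel genes higher numbered 22 of 113 without a filter, 22 of 51 at a mean RPKM of 0.2 and 6 of 11 at a mean RPKM of 5, beside 17%, 24.7% and 23.8% of all genes in those fits. Those lower numbered 9, 7 and 1, beside 13%, 19.8% and 26.8%. Partner genes lower numbered 2 of the 20 tested at a mean RPKM of 5, beside 26.8% of all genes in that fit. The median log2 fold change of the channel genes, 0.30, was 0.37 with a pseudocount of 0.1, 0.011 without a filter, 0.20 at 0.2, 0.46 at 5, 0.21 with quantile normalization, 0.38 with voom and between 0.22 and 0.37 when any 1 sample was dropped. It moved by more than the SD over sample pairs (0.06), and apart from the filters the cause was not tested. The log2 fold change of MYCN kept its direction and passed throughout.

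Same-numbered samples deviated in opposite directions (correlation -0.9845). These values come after the authors' adjustment, so the correlation cannot show whether same-numbered samples were handled together. With the replicate block, 15 channel genes were higher and 4 lower, beside 18.2% and 16.2% of all genes, with SCN3B and KCNJ12 among the calls lost and CACNA2D1, KCNA3 and KCNQ5 gained, and 15 partner genes were higher and 7 lower. With the crossed block, added after seeing the data, all 35 channel genes passed, 25 higher and 10 lower, as did 51.8% and 46.1% of all genes, so that the count tells nothing of the channels, and 26 partner genes were higher. A fit without 1 sample sets 2 samples against 1 and takes the spread from the remaining pair, so the lone sample is assumed to vary like that pair. CACNA2D1 and KCNA3 passed in all 4 such fits (highest adjusted p 0.018 and 0.0218), KCNQ5 without a replicate 1, and SCN8A, KCNAB1 and KCNH8 without a replicate 2. These passes are not read as support. With 2 samples a group and adjusted values, genes under about 0.2 RPKM are limited by counting.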

Other observations

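Among the 62 channel genes with a mean RPKM above 0 but under 0.2, which no fit above tested apart from the one without a filter, the counting interval of the read ratio held 1 for 57. It lay above 1 for KCNMB4, KCNH1 and SCN4B. KCNMB4, the neuronal beta subunit of the large-conductance calcium-activated channel, had 6 and 2 reads in Ctrl and 11 and 29 in MYCN KD (ratio 5.51, interval 2.54 to 13.6). SCN4B had 5 and 4 reads in Ctrl and 10 and 12 in MYCN KD (ratio 2.69, interval 1.19 to 6.65). KCNH1 had 30 and 35 reads in Ctrl and 65 and 56 in MYCN KD (ratio 2.05, interval 1.505 to 2.82). The interval of KCNK5 lay below 1, with 14 and 6 reads in Ctrl and 0 and 2 in MYCN KD (ratio 0.110, interval 0.0125 to 0.454). These intervals cover counting error only and were not adjusted for the number of genes. No such intervals were computed for other genes at this level, so the count is not read as a result about the channels.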
